A study of Mus musculus with 10 samples.

Results

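The genes described here were 10 transcription factors of the naive pluripotency network of mouse embryonic stem (ES) cells: Esrrb, Nanog, Klf2, Klf4, Klf5, Tfcp2l1, Prdm14, Nr5a2, Zfp42 and Gbx2. They were taken by name, as 10 of 21627 protein-coding genes, and each was measured over its RefSeq span plus 2 kb on each side. The study mapped 5-carboxylcytosine (5caC) at single CG sites of genomic DNA. Of the 1183229 coverage entries in the deposited table, at 922427 CG positions, 904 entries at 739 positions lay in these 10 regions.

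The cells were labelled Tdg or wt and were grown in serum-2i or in serum, which gave 4 groups with entries: serum-2i Tdg, serum Tdg, serum-2i wt and serum wt. Each group had 2 libraries, which the series' design text calls technical replicates. Serum-2i is the same serum medium with LIF plus 2 kinase inhibitors, CHIR99021 at 3 µM against GSK3 and PD0325901 at 1 µM against MEK. All groups therefore shared serum and LIF. The label Tdg names the gene for thymine DNA glycosylase without saying how it was altered, and no label names a cell line or clone. A further group, DNA of serum-grown triple-Tet-knockout cells, served as the study's negative control and is not analysed here. DNA modification gives no expression level, so the labelled cell type could not be checked against its markers.

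5caC is the last product of the stepwise oxidation of 5-methylcytosine by the TET dioxygenases. TDG excises it, and base excision repair then restores an unmodified cytosine, so 5caC is an intermediate of active demethylation. In ES cells the naive factors hold one another's genes active downstream of LIF, WNT and reduced MEK signalling, and inhibiting GSK3 and MEK together favours that state.

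The table gave 1 value per site and group, read as the mean coverage of the 2 libraries, and no value per library. No spread between replicates could be computed, so no test between groups was possible and no p-value is given. The number of listed sites and their summed coverage differed widely between groups. Serum-2i Tdg had 689303 listed sites and a summed coverage of 12348368, and serum Tdg 374488 and 7486660. Serum-2i wt had 110753 and 890158.5, and serum wt 8685 and 43172. These sums cover listed sites only, and the part of sequencing depth in them was not tested. A site was listed only from a mean coverage of 6 for both Tdg groups, 4 for serum-2i wt and 3 for serum wt. A site absent from a group therefore had an unknown value there and not a value of 0.

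Annotated start regions were available for 8 of the 10 genes, in 11 windows of 300 bases from RefSeq on GRCm38.p6, the assembly also called mm10. The 5 windows below are shown because they differ in which medium listed their CGs, or, for Klf4, because many CGs stood there and none was listed. Each runs 5′ to 3′ on the gene's strand from 250 bases before the annotated start, and capitals mark the CGs listed in at least 1 group.
Esrrb, first start, chr12:86360867-86361166, plus strand: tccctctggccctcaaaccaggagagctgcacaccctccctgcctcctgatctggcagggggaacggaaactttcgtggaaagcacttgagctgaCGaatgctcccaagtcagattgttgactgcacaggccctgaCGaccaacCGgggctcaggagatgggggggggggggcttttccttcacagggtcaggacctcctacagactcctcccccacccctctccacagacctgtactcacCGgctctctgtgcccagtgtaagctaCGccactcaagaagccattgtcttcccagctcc
Esrrb, second start, chr12:86421394-86421693, plus strand: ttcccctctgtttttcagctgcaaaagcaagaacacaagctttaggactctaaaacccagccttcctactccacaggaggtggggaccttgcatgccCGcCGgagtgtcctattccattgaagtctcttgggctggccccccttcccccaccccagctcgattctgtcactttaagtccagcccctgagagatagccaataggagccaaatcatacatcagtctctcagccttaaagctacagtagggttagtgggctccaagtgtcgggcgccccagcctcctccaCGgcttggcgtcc
Nanog, chr6:122707239-122707538, plus strand: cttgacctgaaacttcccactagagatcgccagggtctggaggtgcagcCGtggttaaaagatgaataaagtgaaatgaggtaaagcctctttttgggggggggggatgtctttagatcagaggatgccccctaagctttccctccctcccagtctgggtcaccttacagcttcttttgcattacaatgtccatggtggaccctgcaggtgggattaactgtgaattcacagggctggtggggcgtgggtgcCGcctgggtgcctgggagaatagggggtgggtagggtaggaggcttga
Tfcp2l1, chr1:118627695-118627994, plus strand: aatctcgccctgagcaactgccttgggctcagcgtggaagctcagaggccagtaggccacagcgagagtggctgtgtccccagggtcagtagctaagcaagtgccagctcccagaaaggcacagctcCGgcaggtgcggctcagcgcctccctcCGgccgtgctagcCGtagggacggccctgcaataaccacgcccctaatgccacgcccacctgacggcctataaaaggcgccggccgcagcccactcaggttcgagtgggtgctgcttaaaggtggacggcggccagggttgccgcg
Klf4, chr4:55532426-55532725, minus strand: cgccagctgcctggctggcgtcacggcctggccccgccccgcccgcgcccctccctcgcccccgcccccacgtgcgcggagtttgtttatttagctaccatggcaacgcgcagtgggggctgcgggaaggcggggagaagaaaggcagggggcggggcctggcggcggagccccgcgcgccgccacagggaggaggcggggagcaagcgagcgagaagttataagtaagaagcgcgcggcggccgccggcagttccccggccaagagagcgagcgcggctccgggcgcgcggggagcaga

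Every one of the 10 genes had listed 5caC sites in both Tdg groups. The regions held 500 sites in serum-2i Tdg cells and 335 in serum Tdg cells, against 65 in serum-2i wt cells and 4 in serum wt cells. Among all protein-coding genes, 80.6% had a site in serum-2i Tdg and 72.0% in serum Tdg. In serum-2i wt cells 6 of the 10 genes had a site, which was close to the 61.0% of all protein-coding genes. In serum wt cells only Esrrb did, where 18.5% of all protein-coding genes had one.

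Per length, the factor genes were dense in sites in the Tdg groups. Pooled over the 10 regions, serum-2i Tdg had 1.15 sites per kb, serum Tdg 0.771, serum-2i wt 0.150 and serum wt 0.00921. Over all protein-coding genes these densities were 0.384, 0.237, 0.0663 and 0.00558 sites per kb. They are per length and not per CG. The densest members were short genes in serum Tdg cells. Gbx2 had 4.85 sites per kb there and Klf4 had 4.60, which placed both above 99% of protein-coding genes. Not every member was dense. In serum Tdg, Tfcp2l1 had 0.196 sites per kb, Zfp42 0.251 and Nr5a2 0.254, above 56.4%, 60.8% and 61.1% of protein-coding genes.

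**Figure D1:**
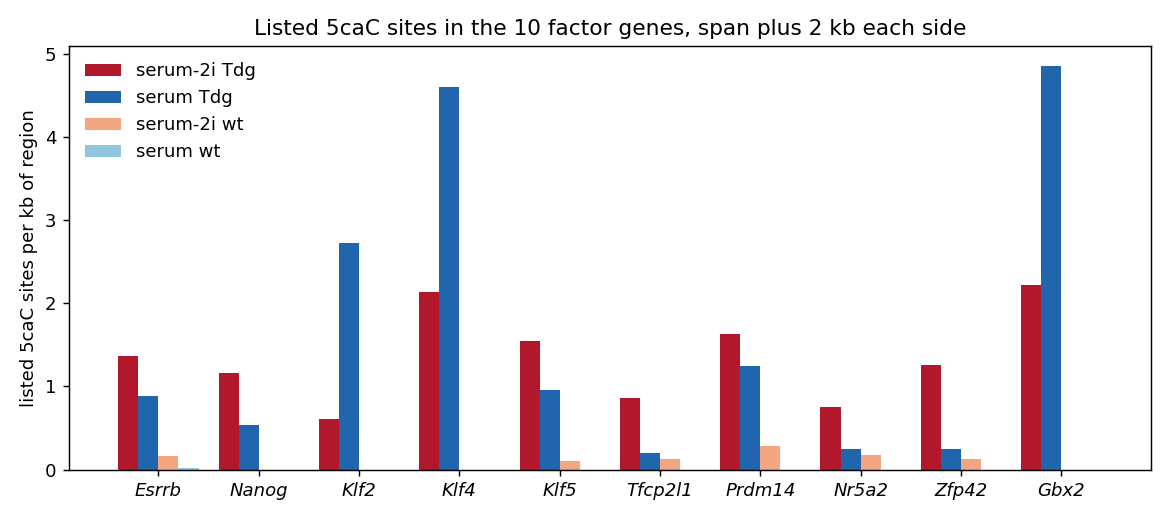
Bars give the number of listed 5caC sites per kb of region (span plus 2 kb each side) for each factor gene in serum-2i Tdg, serum Tdg, serum-2i wt and serum wt, 1 table value per group and so no error bars. Klf2, Klf4 and Gbx2 stand higher in serum Tdg than in serum-2i Tdg, and the 7 others stand higher in serum-2i Tdg; Nanog, Klf2, Klf4 and Gbx2 have no bar in either wt group.

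The comparison of media in Tdg cells asks how the distribution of 5caC differed with the 2 inhibitors. Each gene's summed coverage was taken as a share of all coverage listed in its group, and the log2 ratio of the shares, serum-2i over serum, was called at 2-fold or more with a 95% interval that excluded 0. These intervals cover counting error only: reads amplified by PCR were not independent molecules, and a read can cover several neighbouring CGs. Of the 10 genes, 2 were higher in serum-2i (Zfp42 and Tfcp2l1), 3 were lower (Klf2, Klf4 and Gbx2) and 5 lay between. Over the 13978 protein-coding genes compared, 25.5% were called higher and 27% lower, so the number of calls among the factors was close to the background. The median log2 ratio of the 10 genes was 0.20, against -0.044 over all genes compared. The genes of the list moved in both directions: the ratios reached from -3.18 for Klf2 to 2.24 for Zfp42, while the middle 50% of all genes lay between -1.11 and 1.03.

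**Figure D2:**
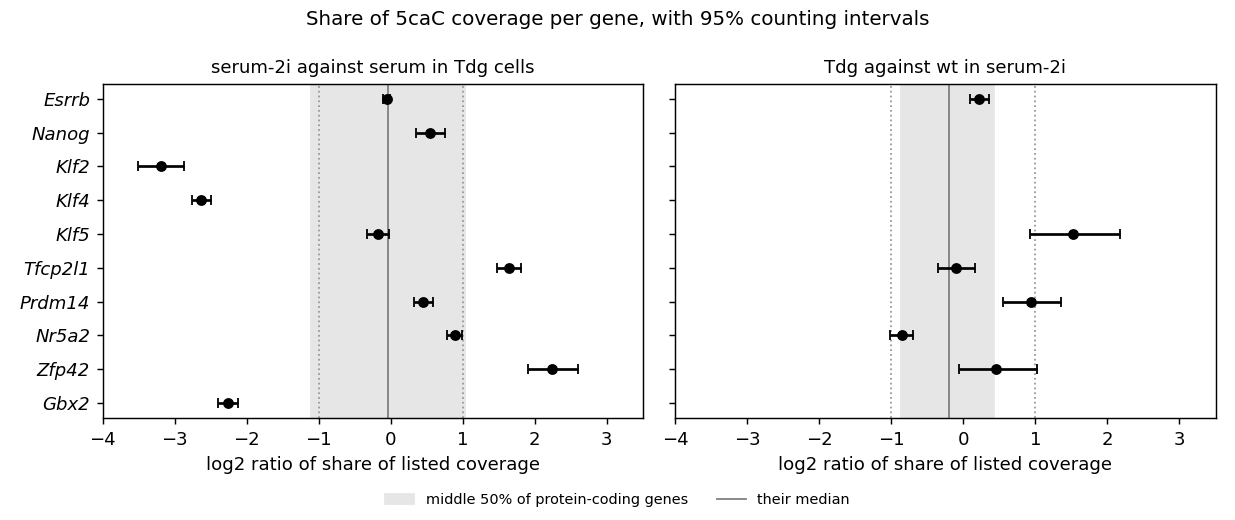
Points give the log2 ratio of each gene's share of listed coverage, with exact 95% counting intervals as bars, for serum-2i against serum in Tdg cells (left) and Tdg against wt in serum-2i (right); the grey band is the middle 50% of protein-coding genes, the grey line their median, and dotted lines mark 2-fold. At left Klf2, Klf4 and Gbx2 lie below the band and Tfcp2l1 and Zfp42 above it; at right 6 genes have a value.

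The 3 Krüppel-like factors, zinc-finger activators with overlapping functions in ES cells, went different ways. Klf4, one of the reprogramming factors, had 20 sites in serum-2i Tdg cells (coverage 299 in all) against 43 in serum Tdg cells (1122.5), and none in either wt group. The log2 ratio was -2.63 (interval -2.76 to -2.50), which is 6.19-fold lower in serum-2i. The gene lies on the minus strand at chromosome 4, 55527137 to 55532475, and a lncRNA gene, Gm12506, overlaps the region.

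The difference at Klf4 was widest in the start-side 50% of its span. There serum-2i Tdg had 11 sites with a coverage of 154.5, against 32 sites with 920.5 in serum Tdg, a log2 ratio of shares of -3.30. The upstream flank had 1 site with 20 against 5 with 86.5 (-2.83). The remaining 50% of the span had 7 sites with 100.5 against 5 with 93.5 (-0.62). A tight run of 23 sites within 673 bp, 1737 to 2409 bp downstream of the start (chromosome 4, 55530066 to 55530738), made up most of the serum signal. In that interval serum-2i Tdg had 9 listed sites of coverage 6.5 to 29 (109 in all), against 8 to 132 (746 in all) in serum Tdg. At the 17 CGs of Klf4 listed in both media, coverage was higher in serum-2i at 3 and higher in serum at 14.

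Klf2 had 4 sites in serum-2i Tdg cells (coverage 49) against 18 in serum Tdg cells (270), and none in either wt group. Its log2 ratio of -3.18 (interval -3.51 to -2.87), 9.09-fold lower in serum-2i, was the lowest of the 10. Within the gene itself (chromosome 8, 72319062 to 72321654, plus strand) serum-2i Tdg had no listed site and serum Tdg had 5, with a coverage of 13 and 44.5 in its start-side and far 50%. The upstream flank had 2 sites with 21 in serum-2i Tdg against 3 with 56.5 in serum Tdg, and the downstream flank 2 with 28 against 10 with 156. At the 3 CGs listed in both media the coverage was higher in serum each time.

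Klf5 differed from its relatives. It had 29 sites in serum-2i Tdg cells (456) against 18 in serum Tdg cells (312.5), 2 in serum-2i wt cells (11.5) and none in serum wt cells. The log2 ratio of -0.18 (interval -0.33 to -0.028) was not called. Parts of its region went opposite ways. The low-coordinate 50% of the span (chromosome 14, 99298691 to 99313412) carried a coverage of 102 in serum-2i Tdg against 213 in serum Tdg, and the flank beyond the high-coordinate end 232.5 against 43.5. The high-coordinate 50% of the span had 91 against 56, a log2 ratio of shares of -0.021. The low-coordinate flank had 1 site with 30.5 in serum-2i Tdg and none listed in serum Tdg. Without flanks the ratio of Klf5 was -1.20 and would be called lower.

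Nanog and Gbx2 encode homeodomain proteins. Nanog, a central factor of the network, had 13 sites in serum-2i Tdg (364.5) against 6 in serum Tdg (151), and none in either wt group. The log2 ratio was 0.55 (interval 0.35 to 0.75), not called. The highest CG of both groups lay downstream of the gene, chromosome 6, 122716126, with 138.5 in serum-2i Tdg and 90 in serum Tdg, which was 38.0% and 59.6% of all coverage in the region. A second CG inside the gene, at 122713414, had 80 in serum-2i Tdg against 10 in serum Tdg. The call at Nanog turned on such single sites: the ratio was 1.65 within the span alone, and 1.17 without the highest position of each group, and would be called higher in both. By the number of sites it was 0.24 (interval -1.26 to 1.92) and with 10 kb flanks 0.13 (interval -0.038 to 0.30), not called in either.

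Gbx2, which sustains self-renewal downstream of LIF when overexpressed, had 16 sites in serum-2i Tdg (289) against 35 in serum Tdg (841), and none in either wt group. The log2 ratio of -2.26 (interval -2.40 to -2.13) is 4.80-fold lower in serum-2i. No site was listed in the start-side 50% of its short span (chromosome 1, 89927962 to 89931176, minus strand) in any group. Sites sat on both sides of it instead: the upstream flank had 6 sites with 135 in serum-2i Tdg against 10 with 334.5 in serum Tdg, and the downstream flank 6 with 74 against 16 with 362. The upstream group lay within another predicted protein-coding gene, LOC102637806. Leaving out sites inside other genes gave -2.44.

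The upstream sites of Gbx2 formed a tight cluster. Between 89932743 and 89932930, 8 CGs of coverage 6.5 to 116.5 were listed in serum Tdg. A run of 5 CGs with coverage of 6.5 to 66 was listed there in serum-2i Tdg. At the 15 CGs of Gbx2 shared by both media, coverage was higher in serum-2i at 2, higher in serum at 12 and equal at 1. Thus 15 of the 16 CGs listed in serum-2i Tdg in Gbx2, and 17 of 20 in Klf4, were also listed in serum Tdg. Over all protein-coding genes this share was 30.3%. Most of these shared CGs of Gbx2 and Klf4 had the lower coverage in serum-2i. Over all protein-coding genes, 49.1% of the shared CGs were higher in serum-2i.

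**Figure D3:**
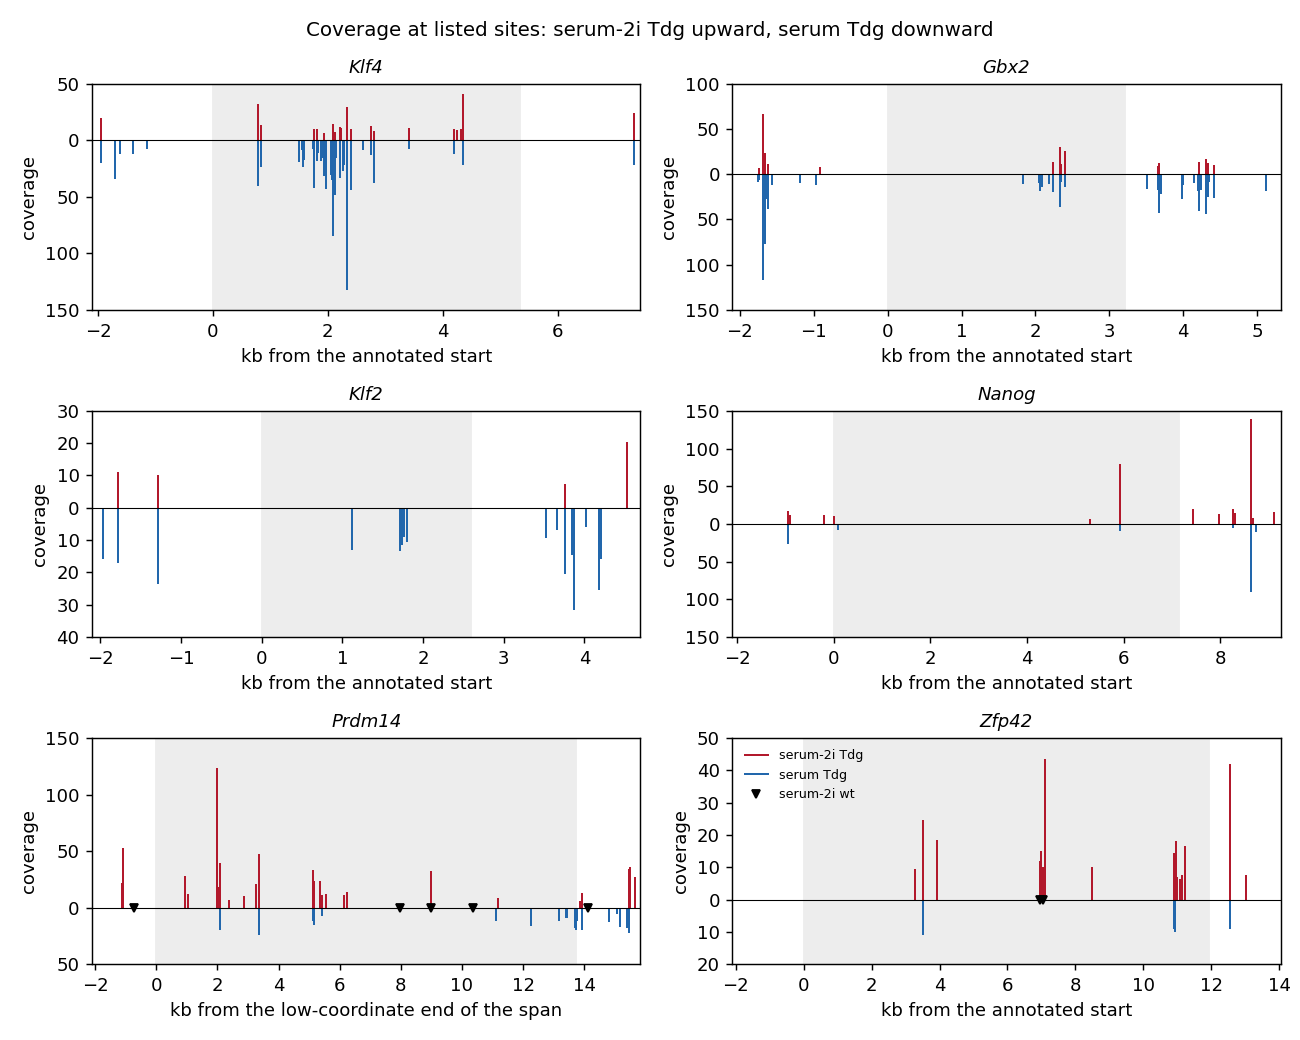
Each vertical line is a listed CG at its distance in kb from the annotated start (from the low-coordinate end for Prdm14, whose strand was not given), with coverage in serum-2i Tdg drawn upward in red and in serum Tdg downward in blue; grey marks the gene span and black triangles CGs listed in serum-2i wt. The 23-site run of Klf4 and the flanking clusters of Gbx2 stand deeper in serum, and Zfp42 and the low-coordinate side of Prdm14 stand taller in serum-2i.

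Esrrb and Nr5a2 encode orphan nuclear receptors: ESRRB is a GSK3-regulated core factor of the naive state, and NR5A2 can replace OCT4 in reprogramming of mouse cells. Esrrb held the most sites of the 10, with 224 sites for serum-2i Tdg (4227.5), 146 for serum Tdg (2663), 27 for serum-2i wt (262) and 4 for serum wt (16). Its share of coverage was nearly the same in both media in Tdg cells, with a log2 ratio of -0.055 (interval -0.10 to -0.0054). The gene is long (chromosome 12, 86361117 to 86521628, plus strand), so this was not the highest density per kb. A lncRNA gene, Gm40483, overlaps the region.

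Along Esrrb the media differed in opposite directions. From 64.2 to 96.3 kb after the start, serum-2i Tdg had 63 sites with a coverage of 1299, against 18 sites with 394.5 in serum Tdg. From 96.3 to 144 kb the order turned, with 34 sites (516) in serum-2i Tdg against 63 (1136.5) in serum Tdg. In the last 16.1 kb of the span it turned again, with 46 sites (836.5) against 8 (128.5). The log2 ratios of these stretches were 1.00, -1.86 and 1.98. The stretches were chosen after their values were seen and are given as a description.

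Opposite media also listed the CGs near the Esrrb starts printed above. Within 500 bp of the first start serum-2i Tdg had 7 sites with a coverage of 111, among them 37.5 at position -9 relative to the start, against 2 sites with 21.5 in serum Tdg; serum-2i wt had 1 site with 4. Within 500 bp of the second start serum-2i Tdg had no listed site and serum Tdg had 7 with a coverage of 104.5. These 7 ranged from 6.5 to 31. Of the 7 CGs in each printed window, 4 of the first were listed in serum-2i Tdg and 2 in serum Tdg; of the second, none and 3.

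In Nr5a2, serum-2i Tdg had 92 sites (1441), serum Tdg 31 (472), serum-2i wt 21 (188.5) and serum wt none. The log2 ratio between media in Tdg cells was 0.89 (interval 0.78 to 1.00), just under 2-fold and not called. Along the gene (chromosome 1, 136842562 to 136960448, minus strand) the 2 media differed by region. In the first 23.6 kb after the start serum-2i Tdg had 23 sites (328.5) against 29 (455.5) in serum Tdg, a log2 ratio of -1.19. In the rest of the span it had 68 sites (1105.5) against 2 (16.5), a log2 ratio of 5.34. From 47.2 kb onward serum-2i Tdg had 49 sites and serum-2i wt 11, and serum Tdg had none listed. This division too was made after the values were seen.

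Tfcp2l1, a CP2-family factor that acts with LIF signalling, had 53 sites in serum-2i Tdg cells (897.5), 12 in serum Tdg cells (174.5), 8 in serum-2i wt cells (69.5) and none in serum wt cells. The log2 ratio of 1.64 (interval 1.47 to 1.81) is 3.12-fold higher in serum-2i. As in Nr5a2, the difference lay away from the start. In the 50% of the span farther from the start (chromosome 1, 118627923 to 118685168, plus strand) serum-2i Tdg had 26 sites with 521, against 1 site with 6.5 in serum Tdg. At the start itself the order was the other way: 3 CGs in the printed window, at positions -123, -96 and -83 relative to the start, had coverages of 8.5, 7.5 and 19.5 in serum Tdg and were not listed in serum-2i Tdg, whose nearest site was 4475 bp inside the gene. With 10 kb flanks the ratio was 0.83 and was no longer called. A pseudogene, LOC115487679, overlaps the region.

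**Figure D4:**
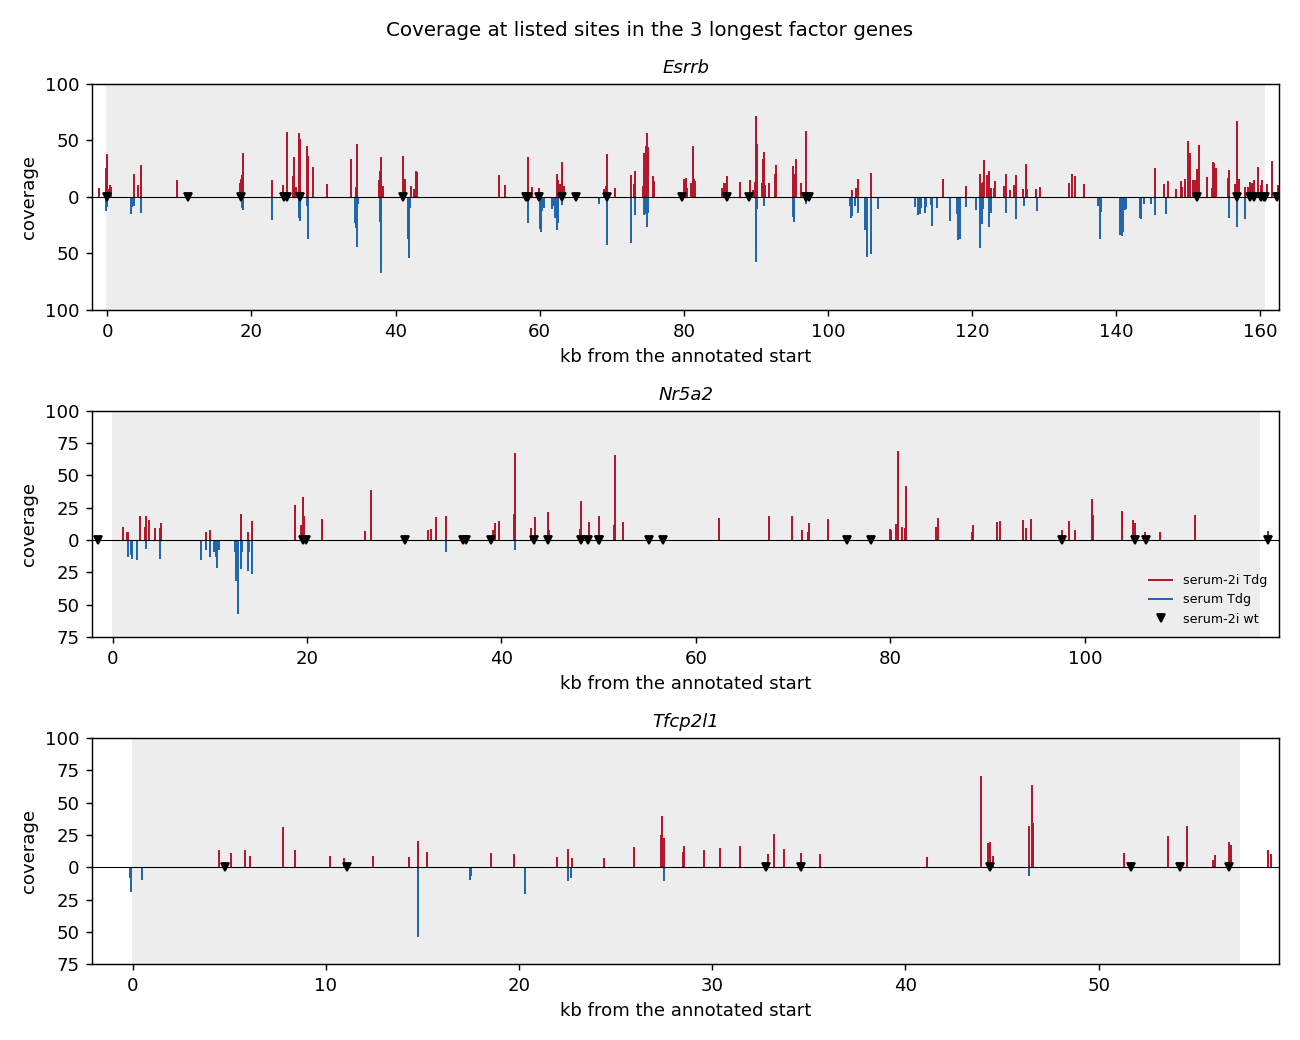
Listed CGs of Esrrb, Nr5a2 and Tfcp2l1 by distance in kb from the annotated start, with coverage in serum-2i Tdg drawn upward in red and in serum Tdg downward in blue; grey marks the span and black triangles CGs listed in serum-2i wt. In Nr5a2 all but 2 blue lines lie in the first 23.6 kb while red lines run to the far end, and in Esrrb stretches of mainly red and mainly blue lines alternate.

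Zfp42 and Prdm14 encode zinc-finger proteins. Zfp42, whose product REX1 is a marker of naive ES cells, had 20 sites in serum-2i Tdg cells (304.5), 4 in serum Tdg cells (39), 2 in serum-2i wt cells (16) and none in serum wt cells. The log2 ratio of 2.24 (interval 1.90 to 2.60), 4.73-fold higher in serum-2i, was the highest of the 10. All 4 CGs listed in serum were also listed in serum-2i, each with the higher coverage in serum-2i. In raw coverage the median log2 ratio at these 4 was 0.92, against 0 at the shared CGs of all protein-coding genes. As shares of the group's coverage the median at these 4 was 0.20, and no median over all genes is given on that scale. Most sites lay in the part of the span far from the start (chromosome 8, 43295067 to 43307009, minus strand), with 15 sites and 202.5 in serum-2i Tdg against 2 sites and 19 in serum Tdg. They included runs of 9 and 5 sites, in which serum Tdg had 2 sites and none. Counted by sites instead of coverage, the ratio was 1.44 with an interval of -0.14 to 3.45, and was not called.

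Prdm14, which represses FGF signalling and de novo methyltransferase genes in mouse ES cells, had 29 sites in serum-2i Tdg cells (744), 22 in serum Tdg cells (329), 5 in serum-2i wt cells (28) and none in serum wt cells. The log2 ratio was 0.46 (interval 0.32 to 0.59), not called, and it turned to -0.48 by the number of sites. Its low-coordinate 50% (the gene spans chromosome 1, 13113428 to 13127163) had 20 sites with 512.5 in serum-2i Tdg against 6 with 95 in serum Tdg. The flank beyond the high-coordinate end had 5 sites with 117 against 10 with 157. A run of 5 CGs at 13115406 to 13115516 had coverages from 11.5 to 123.5 in serum-2i Tdg, where serum Tdg had 1 listed site with 19.5.

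Calls at the level of the gene were compared once more by the number of sites, which does not count the reads of 1 site many times over. Klf2 (-3.05), Klf4 (-1.98) and Gbx2 (-2.01) were again called lower in serum-2i and Tfcp2l1 (1.26) higher. Klf2, Klf4 and Gbx2 were called lower under each alternative setting that gave them a value. Klf2 had no value without flanks, since no site was listed inside it in serum-2i Tdg.

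In serum-2i, Tdg against wt could be compared for the 6 genes with a site in wt cells. The other 4, Nanog, Klf2, Klf4 and Gbx2, had 13, 4, 20 and 16 sites in serum-2i Tdg and none listed in serum-2i wt. Klf5 was higher in Tdg, with a log2 ratio of 1.52 (interval 0.92 to 2.18), on a coverage of 456 against 11.5 at 2 wt sites. It was not called without flanks (0.27) or with 10 kb flanks (0.39). The 5 others were not called: Prdm14 had 0.94, Zfp42 0.46, Esrrb 0.22, Tfcp2l1 -0.10 and Nr5a2 -0.86. These ratios compare shares of each group's own summed coverage, so a difference common to all genes is divided out. A negative ratio is a smaller share and not necessarily a lower coverage: Nr5a2 had 1441 in Tdg against 188.5 in wt. Prdm14 was called higher with a common minimum coverage of 6 (1.74), without flanks (1.15) and with median-ratio scaling (1.14), but turned to -0.10 by the number of sites and -0.16 with 10 kb flanks. Zfp42 was called higher without the highest positions (1.12). Over the 12152 protein-coding genes compared, 11.3% were called higher and 20.7% lower. The median was 0.34 for the 6 genes, against -0.20 over all. Scaling by the median ratio gave 15.0% higher and 15.9% lower over all genes, a shift of 0.20. Genes enter this comparison only where a site was listed in the wt group, which had far fewer listed sites.

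At single CGs, coverage was mostly higher in Tdg. Within the 10 regions, 27 CGs were listed in both serum-2i Tdg and serum-2i wt. Their median coverage was 19.5 (range 7 to 67) in Tdg and 8.5 (range 4 to 26) in wt, and Tdg was higher at 24, lower at 2 and equal at 1. No such count over all protein-coding genes is given, so it is not read as particular to the factors. Over all listed sites the median was 13.5 in serum-2i Tdg and 7.5 in serum-2i wt. The lowest listed coverage was 6 and 4. The summed coverage of all sites was 12348368 in serum-2i Tdg and 890158.5 in serum-2i wt. Raw coverage also carries this difference between the groups, whose part was not tested.

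In serum, Tdg against wt could be compared for Esrrb alone, with 146 against 4 sites and a log2 ratio of -0.059 (interval -0.56 to 0.49). This too is a ratio of shares, and the summed coverage of Esrrb was 2663 in Tdg against 16 in wt. Of the 3828 protein-coding genes compared, 4.23% were called higher and 54.8% lower. Between media in wt cells, Esrrb again was the only member with a value, with 27 sites in serum-2i against 4 in serum and a log2 ratio of -0.33 (interval -0.85 to 0.23). There 4.69% of 3519 genes were called higher and 60.8% lower. A gene needed a listed site in serum wt, the group with the fewest listed sites, to enter either comparison. With median-ratio scaling the splits were 23.7% and 24.1%, and 25.6% and 24.4%, and Esrrb stood at 1.19 and at 1.23, called higher in each. The 4 serum wt sites of Esrrb had coverages of 3, 6, 3 and 4. Of these, the CG at 86423548 was also listed with 20.5 in serum-2i Tdg and 29.5 in serum Tdg, and the CG at 86501970 with 31 in serum Tdg.

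Most start windows held no listed CG, among the members as among all protein-coding genes. In serum-2i Tdg 3 of the 11 member windows (27.3%) held one, against 10.5% of all windows. In serum Tdg 4 of the 11 did (36.4%), against 18.5%. Those of Klf4 (40 CGs, more than in 94.9% of promoter windows), Klf2 (32), Gbx2 (27), Zfp42 (11) and Nr5a2 (2 and 7) had none in any group. The nearest site to the start of Klf4 was 785 bp inside the gene in both Tdg groups. For Gbx2 it was 918 bp upstream in serum-2i Tdg and 965 bp upstream in serum Tdg. For Zfp42 it was 3272 and 3504 bp inside the gene. Nanog, by contrast, has only 4 CGs in its window, and serum-2i Tdg listed those at positions -201 and 2 relative to the start (coverage 11.5 and 10). Serum Tdg listed 1 at position 94 (8.5), beyond the printed window but inside that of the second annotated start of Nanog.

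Over the 11 member windows, 7 of 162 CGs (4.32%, exact interval 1.75 to 8.70) were listed in serum-2i Tdg and 9 (5.56%, 2.57 to 10.3) in serum Tdg. Over all protein-coding windows the shares were 1.15% and 2.41%. The listed CGs of the members came from 3 genes, Esrrb, Nanog and Tfcp2l1. The median number of CGs per window was 7 in the members and 13 over all. Windows of 1 gene can overlap, as the 2 of Nanog do, so a CG can count more than once.

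In Tdg cells most sites of the factor genes were listed in 1 medium only. Of the 500 sites in serum-2i Tdg, 136 (27.2%, interval 23.3 to 31.3) were also listed in serum Tdg, against 30.3% over all protein-coding genes. Of the 335 in serum Tdg these were 40.6% (35.3 to 46.1), against 50.5% over all. Of the 65 sites in serum-2i wt, 27 (41.5%, 29.4 to 54.4) were also listed in serum-2i Tdg, against 48.3% over all, and 6 (9.23%, 3.46 to 19.0) in serum Tdg, against 18.3% over all. Sites of 1 gene are not independent, so these intervals are too narrow. At the 136 shared CGs, coverage was higher in serum-2i at 50.7%, against 49.1% over all genes.

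Tight runs, defined as 5 or more listed CGs with gaps of at most 100 bp, occurred in Tdg cells. There were 14 in serum-2i Tdg with 85 sites and 11 in serum Tdg with 80 sites, each in 5 of the genes. Neither wt group had a run. The wt cells had only 65 listed sites (serum-2i) and 4 (serum) over the 10 regions, so nothing is drawn from that absence. No count of runs over all protein-coding genes is given, so the runs are not read as particular to the factors. Esrrb carried 9 of the 14 in serum-2i Tdg and 5 of the 11 in serum Tdg. At 86388881 to 86388978 both media listed the same stretch of Esrrb, with 153 in serum-2i Tdg and 78 in serum Tdg. The 8-site run of Esrrb at 86442351 to 86442612 (coverage 181) had no listed site in serum Tdg, and the 5-site run at 86402861 to 86402996 (130.5 in serum Tdg) none in serum-2i Tdg.

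The neighbouring gene lists are given for the media comparison in Tdg cells. Of 14 network partners, 1 was higher in serum-2i, 5 were lower, 5 lay between, and 3 were listed in 1 medium only, with a median of -0.65. Il6st (2.38), the gp130 subunit of the LIF receptor, was the higher one. Tbx3 (-4.95), a T-box factor, Socs3 (-3.60), the feedback inhibitor of STAT3, and Tcl1 (-2.82), an AKT co-activator, were the lowest. Among 20 family relatives 6 were higher and 5 lower, with a median of -0.14. They included Tfcp2 (1.98), Yy1 (1.92) and Klf12 (1.41) on one side and Klf16 (-3.69), Nr5a1 (-2.25) and Gbx1 (-1.85) on the other.

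Of 14 primed and formative genes 8 were lower in serum-2i and none higher, with a median of -1.56. Foxd3 (-3.57), Pou3f1 (-3.30) and Sox3 (-3.25), all transcription factor genes, were the lowest. All 14 lineage markers were lower, with a median of -2.60, led by Foxa2 (-5.81), Hand1 (-3.58) and Gata6 (-2.95). Over all genes compared 27% were lower. The 3 lower factor genes had ratios within the range of the lineage markers. These lists were chosen with earlier results of these data known and differ in CG content and length, so nothing is drawn from the contrast.

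**Figure D5:**
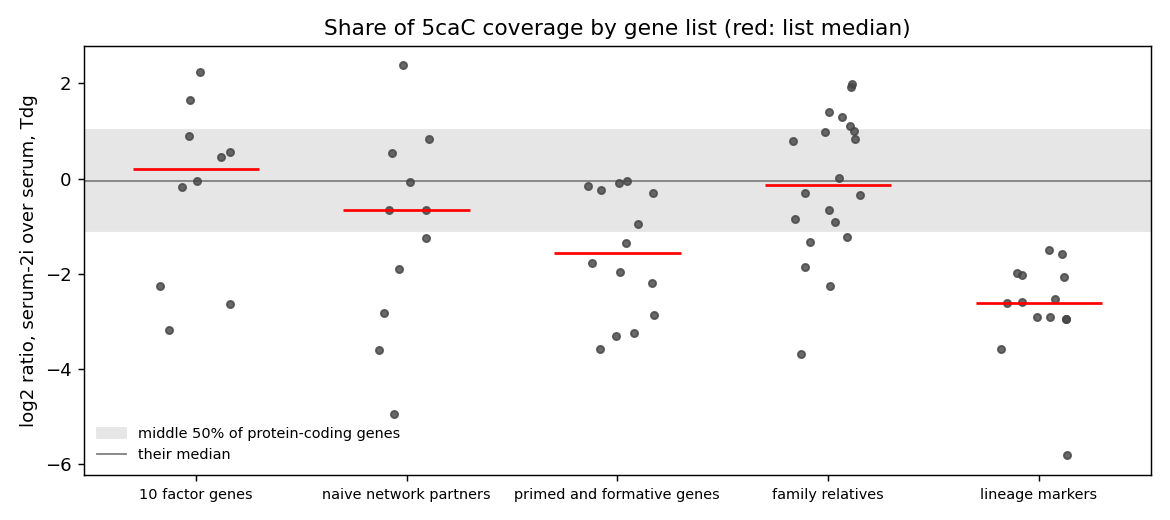
Each point is the log2 ratio of 1 gene's share of listed coverage, serum-2i over serum in Tdg cells, by list; red lines are list medians, and the grey band and line the middle 50% and median of protein-coding genes. The lineage markers all lie below 0, whereas the 10 factor genes lie on both sides.

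Across the 4 groups the protein-coding genes whose site density was most like that of Esrrb were Kctd3, Pak4 and Mtarc2, at Euclidean distances of 0.175, 0.195 and 0.263 in log2(sites per kb + 0.01). In Kctd3, serum-2i Tdg had 59 sites, serum Tdg 37, serum-2i wt 6 and serum wt 1. With 4 groups this likeness is a description only.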

How the data were processed

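Sheared DNA was first blocked, per the labels' protocols: glucose on 5-hydroxymethylcytosine, methyl groups on bare CGs. A modified SssI enzyme decarboxylated 5caC and put an azide in its place for biotin capture, priming, amplification and Ion Proton sequencing. The submitters' processing notes name mm10; which aligner and caller were used is not given in the sources. The authors' deposited table holds coverage, a signal that is never negative, in multiples of 0.5. It was read as the mean of the 2 libraries of a group, and no column of the table was left unmapped.

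Positions were counted from 0 in the table: of 15197 listed positions in RefSeq promoter windows, all fell on a CG when counted that way and none when counted from 1. They are printed counted from 1. Genes were RefSeq spans of GRCm38.p6 plus 2 kb, and all 10 matched by symbol. The filter for comparing genes was a mean of 20 or more in summed coverage across the 4 groups (14501 of 21627, all 10 factors among them). Ratios of coverage shares carry exact conditional Clopper-Pearson 95% intervals. Because the table has no value per library, the count model, the replicate block and leaving out a replicate were not run. Site density, runs, overlaps and promoter windows were counted with Python 3.11.15, pandas 2.3.3 and scipy 1.17.1. The ratio was run on simulated independent counts, which checks the calculation but not the effect of PCR copies or of reads covering several CGs. The genes named were the 10 factors, at most 3 called genes per list and direction, each factor's highest site, and runs. The members and lists were chosen with earlier results of these data known.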

Additional observations from a re-analysis of the deposited data

How the results depend on the processing

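No paired analysis was possible because the table holds 1 value per group and none per library, and leaving out a replicate was not run for the same reason. Between media in Tdg cells, 2 genes were called higher, 1 was by the number of sites or with 10 kb flanks, and 3 were within spans alone or without the highest position of each group, where Nanog was added. The median of 0.20 was -0.23 by the number of sites, 0.88 within spans alone, 0.078 with 10 kb flanks, 0.24 with median-ratio scaling and 0.064 without the highest positions, an alternative chosen after seeing the data. For Tdg against wt in serum-2i, 1 gene was called higher, 0 were by the number of sites, and 2 were with a common minimum coverage of 6, with median-ratio scaling or without the highest positions. Its median of 0.34 was 0.18 with the common minimum, 0.24 within spans alone, 0.54 with median-ratio scaling and 0.61 without the highest positions. With 10 kb flanks, 1 gene was called lower between media in wt cells and 2 were for Tdg against wt in serum, since flanking sites brought Gbx2, and in serum also Nanog, into these comparisons. Median-ratio scaling called 1 gene higher in each, Esrrb, at 1.23 and 1.19. Where no construction is named, the cause was not tested. Of 125 single-gene values under the alternatives, 100 kept sign and call, 7 gained a call, 5 lost one and 11 changed sign without a call on either side, among them Prdm14 between media (-0.48 by the number of sites), Tfcp2l1 for Tdg against wt in serum-2i (0.43 with 10 kb flanks) and Esrrb for Tdg against wt in serum (0.53 without the highest positions). In the wt groups a site that was not listed had an unknown value, so whether 5caC was absent there was not tested.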
